A study of Mus musculus with 12 samples.

Results

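The fatty acid desaturases and elongases described here are 9 genes, found by symbol among the 55357 genes of a liver count table: the desaturases Fads1, Fads2, Fads3 and Fads6, and the elongases Elovl1, Elovl2, Elovl3, Elovl5 and Elovl7. Elovl6 and the Scd genes were left out of the set. All 9 passed the filter on low counts that kept 17358 genes for testing. The livers came from male C57BL/6J mice that all carried floxed PPARα alleles (PPARa fl/fl). KO mice also carried AlbuminCre Tg/+, which drives recombination in hepatocytes, so that other liver cells keep the gene, and WT mice carried AlbuminCre +/+, without the transgene. From 7 to 13 weeks of age, for 6 weeks, the mice received chow with 9% of its energy from fat, or CDAHFD, a high-fat diet without choline whose protein is replaced by defined amino acids, with 62% of its energy from fat. The RNA libraries numbered 4 for WT chow, 3 for WT CDAHFD, 2 for KO chow and 3 for KO CDAHFD, and each was taken as 1 mouse.

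Long polyunsaturated fatty acids are made in the liver from dietary linoleic and α-linolenic acid by alternating steps. A desaturase inserts a double bond, and an elongase catalyses the rate-limiting condensation that lengthens the chain. Fads2 performs the first desaturation, Elovl5 lengthens the product, and Fads1 performs the next desaturation, which yields arachidonic and eicosapentaenoic acid. Elovl2 extends these further towards docosahexaenoic acid, a route that ends with chain shortening in peroxisomes. Elovl1, Elovl3 and Elovl7 act mainly on saturated and monounsaturated chains. PPARα is a nuclear receptor for fatty acids that drives their oxidation in hepatocytes and has been linked to the transcription of desaturase genes.

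Total counts ran from 29906785 to 43551003 per library. Ppara, the targeted gene, lay between 96.2 and 237.8 CPM (counts scaled to library size) in WT chow, between 59.5 and 75.5 with WT CDAHFD, between 14.4 and 38.7 for KO chow, and between 20.7 and 51.9 with KO CDAHFD. Its level was below every WT library in all 5 KO libraries, but KO CDAHFD did not differ from WT CDAHFD in the test (log2 fold change -0.94, SE 0.42, adjusted p = 0.547). All 8 hepatocyte markers examined were detected in each group, and their summed level lay between 96497 and 112085 CPM for WT chow and between 78476 and 90362 for KO chow, while the WT and KO CDAHFD libraries held 49009 to 58502 and 45997 to 60934 CPM. Summed markers of lipid-associated macrophages were at most 198.2 CPM in WT chow and at least 610.9 in KO chow and 1536 in both CDAHFD groups, and those of stellate cells and fibroblasts at most 339.2 in WT chow and at least 1221 in all other libraries. In bulk liver, fewer cells of a type and less RNA per cell cannot be told apart. The libraries also differed in their clock genes. A clock score, the mean log2 CPM of 9 evening genes minus that of 5 morning genes, was above 0 in WT chow replicates 3 and 4, KO chow replicate 2 and KO CDAHFD replicate 3, and below 0 in the other 8 libraries. Dbp, an output gene of the clock, lay between 44.8 and 130.3 CPM in those 4 libraries and between 0.388 and 3.75 in the other 8. The labels give no time of killing.

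Fads1, Fads2 and Fads3 lie side by side on mouse chromosome 19 within 155309 bp (GRCm38, GENCODE M21). Fads1 occupies chr19:10182888-10196877 on the plus strand, Fads2 chr19:10062765-10101746 on the minus strand and Fads3 chr19:10041569-10060110 on the plus strand, with 2654 bp between Fads2 and Fads3 and 81141 bp between Fads1 and Fads2. Elovl3 lies on the same chromosome at chr19:46131897-46135694 (plus). The remaining members are scattered, with Fads6 at chr11:115279622-115297663 (minus), Elovl1 at chr4:118428093-118432953 (plus), Elovl2 at chr13:41182381-41220405 (minus), Elovl5 at chr9:77917364-77984519 (plus) and Elovl7 at chr13:108214404-108285683 (plus). RefSeq start sites on GRCm38.p6 were at hand for 7 members.

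The sequence shown first is 30 bases of Fads2 at chr19:10101701-10101730 on the minus strand, because its 15 capitals are a stretch that the study listed as a PPARα motif match in the Fads2 promoter. They span 220 to 206 bases before the RefSeq start site and lie wholly within exons of Fads2 in GENCODE M21. Elovl1, Elovl5 and Elovl7 were the elongases higher in KO chow than in WT chow, and the regions of Elovl1 are not printed. The upstream regions of Elovl5 (chr9:77917115-77917364, plus) and Elovl7 (chr13:108214154-108214403, plus) follow. Both are the 250 bases before the RefSeq start site, 5′ to 3′, and their capitals mark matches on either strand to one of 5 short motifs. The motifs were the CCAAT box, spelled by its name, the E-box with letters CACGTG, the GC box with letters GGGCGG, the core of a sterol element with letters CACCCCAC, and the nuclear receptor half-site with letters AGGTCA.
Fads2: tttcaccGGAGGCAAAAGTCCAcagcaggc
Elovl5: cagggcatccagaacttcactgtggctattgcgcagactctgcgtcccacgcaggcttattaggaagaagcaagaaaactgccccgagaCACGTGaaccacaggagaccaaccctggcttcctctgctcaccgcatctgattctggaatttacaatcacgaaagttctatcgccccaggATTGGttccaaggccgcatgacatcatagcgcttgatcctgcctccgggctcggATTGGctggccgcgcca
Elovl7: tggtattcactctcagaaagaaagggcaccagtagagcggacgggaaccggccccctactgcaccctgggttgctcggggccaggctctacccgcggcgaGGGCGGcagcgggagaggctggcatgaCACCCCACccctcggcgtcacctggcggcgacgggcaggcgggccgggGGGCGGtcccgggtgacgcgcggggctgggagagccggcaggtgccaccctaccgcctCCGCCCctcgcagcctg

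The 15 capitals of Fads2 differed from a direct repeat of AGGTCA with 1 base between the copies at 4 of 12 letters at best. They occurred in 1 of 32851 upstream regions, that of Fads2, from whose promoter the study listed them. That count therefore does not measure how specific they are. Elovl5 held an E-box, which 6.0% of all regions hold, and 2 CCAAT matches, which 33.8% hold at least once. Elovl7 held 3 GC boxes, present in 32.7% of regions, and the sterol element core, present in 2.6%. Neither held AGGTCA (14% of regions). Fads6 held it 2 times and one of the start sites of Elovl1 held it once, in both genes with 1 copy inside a direct repeat with 1 mismatch of 12 letters. Repeats with up to 3 mismatches, a looser limit, occurred in 21.3% of regions, and the share with 1 mismatch was not counted. These matches describe letters in short windows and were not tested for binding.

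Per kilobase of exon, the scale on which different genes can be compared, Elovl3 had the highest mean level of the set in WT chow, at 440.7 CPM per kb (SD 273.6, n = 4). Elovl2 followed at 233.2 (SD 21.2), Fads2 at 202.1 (SD 38.3), Elovl5 at 128.1 (SD 29.6) and Fads1 at 126 (SD 8.79), and within this order the spans of 1 SD around the means overlapped for all neighbours except Fads2 and Elovl5. Fads6 at 33.1 (SD 5.04), Elovl1 at 17.8 (SD 5.29), Fads3 at 7.52 (SD 1.14) and Elovl7 at 0.0875 (SD 0.0765) were separated from their neighbours by more than these SDs. In the other 3 groups Fads2 stood first, with 239 on WT CDAHFD (SD 10.8), 329.6 for KO chow (SD 36.1) and 209.3 for KO CDAHFD (SD 94.9), and Elovl5 had the next highest mean. The spans of 1 SD around the means of Elovl5 and Elovl2 overlapped in each of these groups, and 1 library of each had Elovl2 above Elovl5, so their order was not separated. By its mean, Elovl3 dropped to rank 7 with WT CDAHFD, rank 5 with KO chow and rank 8 with KO CDAHFD, while Elovl7 stayed lowest in every group. The KO chow rank was not separated, since its libraries held 60.3 and 8.5 CPM per kb of Elovl3. In the second of these Elovl3 lay below Fads3 (10.6).

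**Figure D1:**
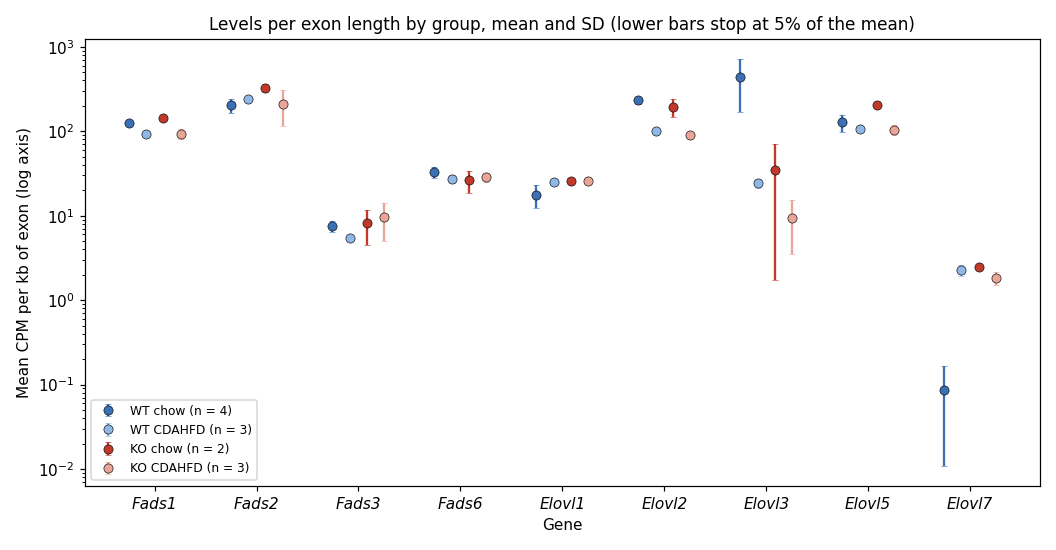
Mean CPM per kb of exon on a log axis for each of the 9 genes, with SD bars, in the 4 groups. Elovl3 is the highest gene in WT chow (440.7) and is at most 34.4 in the other 3 groups, while Fads2 lies between 202.1 and 329.6 in all groups.

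Of the 9 genes, 5 differed between KO chow and WT chow at an adjusted p below 0.05 in edgeR's quasi-likelihood test, where 39.0% of all tested genes did. Fads2, Elovl1, Elovl5 and Elovl7 were higher and Elovl3 was lower. Between WT CDAHFD and WT chow 5 differed as well, against 51.1% of all genes. Here Elovl1 and Elovl7 were higher, and Fads1, Elovl2 and Elovl3 were lower. Both comparisons share the 4 WT chow libraries. The median log2 fold change of the 9 genes was 0.18 in KO chow, beside 0.002 for all tested genes, and -0.29 in WT CDAHFD, beside -0.048. With 9 genes, 5 called lies near both backgrounds.

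Within CDAHFD, none of the 9 differed between KO and WT by edgeR, and none by DESeq2, where 0.357% of all genes were called by edgeR. 1 member, Fads3, had an unadjusted p below 0.05. Between the KO groups, 3 members were lower on CDAHFD than on chow (Fads1, Elovl2 and Elovl5), beside 6.19% of all genes called. The same 3 were higher in KO chow than in WT CDAHFD, beside 6.12% of all genes, and these comparisons share the KO chow libraries. The change with diet differed between genotypes for 1 member, Elovl7, beside 23.1% of all genes.

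**Figure D2:**
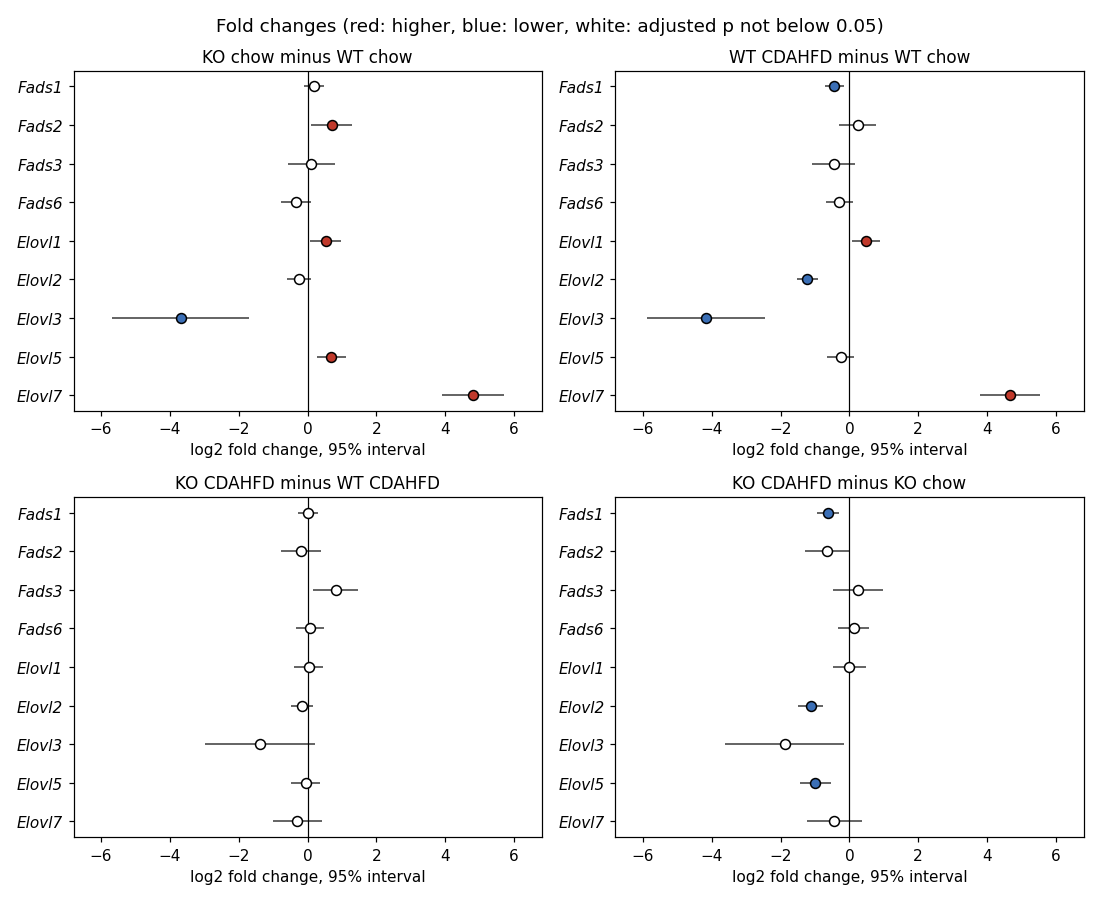
Log2 fold changes of the 9 genes with 95% intervals in 4 comparisons, red where higher, blue where lower and white where the adjusted p was not below 0.05. Elovl3 (-3.68 and -4.17) and Elovl7 (4.81 and 4.66) stand far from the other genes in both comparisons with WT chow, and no gene is filled in the comparison of the CDAHFD groups.

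Fads2, the enzyme of the first desaturation, was highest in KO chow. Its level in WT chow replicates 1 to 4 was 567.7, 559.5, 713.7 and 822.4 CPM. KO chow libraries held 1002 and 1170 CPM, WT CDAHFD libraries 759.4, 827.5 and 775.2 CPM, and KO CDAHFD libraries 560.4, 462.6 and 1046 CPM. Both KO chow libraries lay above all WT libraries, while KO CDAHFD replicate 3 lay far above the other two of its group. Against WT chow the log2 fold change of KO chow was 0.71 (SE 0.26, adjusted p = 0.0478), or 1.63-fold, and it lost significance in 9 of 12 fits that each left out 1 library, with values from 0.59 to 0.83. WT CDAHFD overlapped WT chow (log2 fold change 0.24, SE 0.23, adjusted p = 0.414). Between the KO groups the change was -0.65 (SE 0.28, adjusted p = 0.182), and the difference between genotypes in the response to diet was -0.90 (SE 0.36, adjusted p = 0.0975). Among the 8 libraries with a clock score below 0, Fads2 was higher in KO chow (0.83, adjusted p = 0.00331) and in WT CDAHFD (0.48, adjusted p = 0.00807) than in WT chow, and the difference in the response to diet was -1.46 (adjusted p = 0.00101). That difference was also called without KO CDAHFD replicate 3 (-1.33, adjusted p = 0.00209), with the clock score as a covariate (-1.22, adjusted p = 0.00261), with no filter (-0.93, adjusted p = 0.0156) and with total counts only (-1.24, adjusted p = 0.0287). In the fit of low-score libraries KO chow is a single library, whose spread was taken from the other groups.

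Fads1, the desaturase that acts after the first elongation, fell with CDAHFD in both genotypes. WT chow libraries held 583.9, 580.5, 590.7 and 669.2 CPM, and WT CDAHFD libraries 422.9, 445.7 and 464.5 CPM. KO chow libraries held 671.6 and 703.9 CPM, and KO CDAHFD libraries 410.8, 414.6 and 526.9 CPM. No CDAHFD library reached the lowest chow library. Its log2 fold change with diet was -0.45 in WT mice (SE 0.11, adjusted p = 0.00536) and -0.61 in KO mice (SE 0.13, adjusted p = 0.0207), and these responses did not differ in the test (-0.16, SE 0.17, 95% interval -0.54 to 0.22). When libraries were scaled by total count only, the WT value turned to 0.12, while the median of all genes moved to 0.51, so that Fads1 stood at -0.39 relative to that median. In KO mice the call was lost in 4 of 12 fits that left out 1 library, with values from -0.74 to -0.55, and also with total counts only (-0.40, adjusted p = 0.101) and with only the 2 groups in the fit (-0.60, adjusted p = 0.0979). KO chow was slightly above WT chow without passing the test (0.18, SE 0.13, adjusted p = 0.277).

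The neighbouring genes Fads2 and Fads1 therefore stood in different proportions in the groups. The ratio of their levels per kb was 1.42, 1.41, 1.76 and 1.79 for WT chow and 2.62, 2.71 and 2.44 with WT CDAHFD. For KO chow it was 2.18 and 2.43, and with KO CDAHFD 1.99, 1.63 and 2.9. WT CDAHFD and KO chow lay wholly above WT chow, and KO CDAHFD overlapped it.

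Fads3, whose product desaturates sphingoid bases, was the least expressed desaturase. WT chow libraries held 26.2, 27.7, 25.3 and 34.8 CPM, and WT CDAHFD libraries 19.07, 20.95 and 21.96 CPM. KO chow libraries held 21.2 and 40.3 CPM, and KO CDAHFD libraries 26.96, 25.5 and 56.3 CPM. All KO CDAHFD libraries exceeded all WT CDAHFD libraries, with a log2 fold change of 0.81 (SE 0.29, unadjusted p = 0.0153, adjusted p = 0.413). The highest value of KO CDAHFD belonged to replicate 3, and without the libraries of high clock score the value was 0.34 (adjusted p = 0.189). WT CDAHFD was at -0.46 against WT chow (SE 0.27, adjusted p = 0.176), and among libraries of low clock score it was called lower (-0.38, adjusted p = 0.0117). Fads6, a desaturase of less known function, lay between 139.3 and 243.8 CPM in all libraries, and its groups overlapped in each comparison. Against WT chow its log2 fold change was -0.33 for KO chow (SE 0.19, adjusted p = 0.182) and -0.29 with WT CDAHFD (SE 0.16, adjusted p = 0.168). Leaving out 1 library at a time gave -0.66 to -0.05 for KO chow. The -0.66 came without KO chow replicate 2, where KO chow is 1 library.

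**Figure D3:**
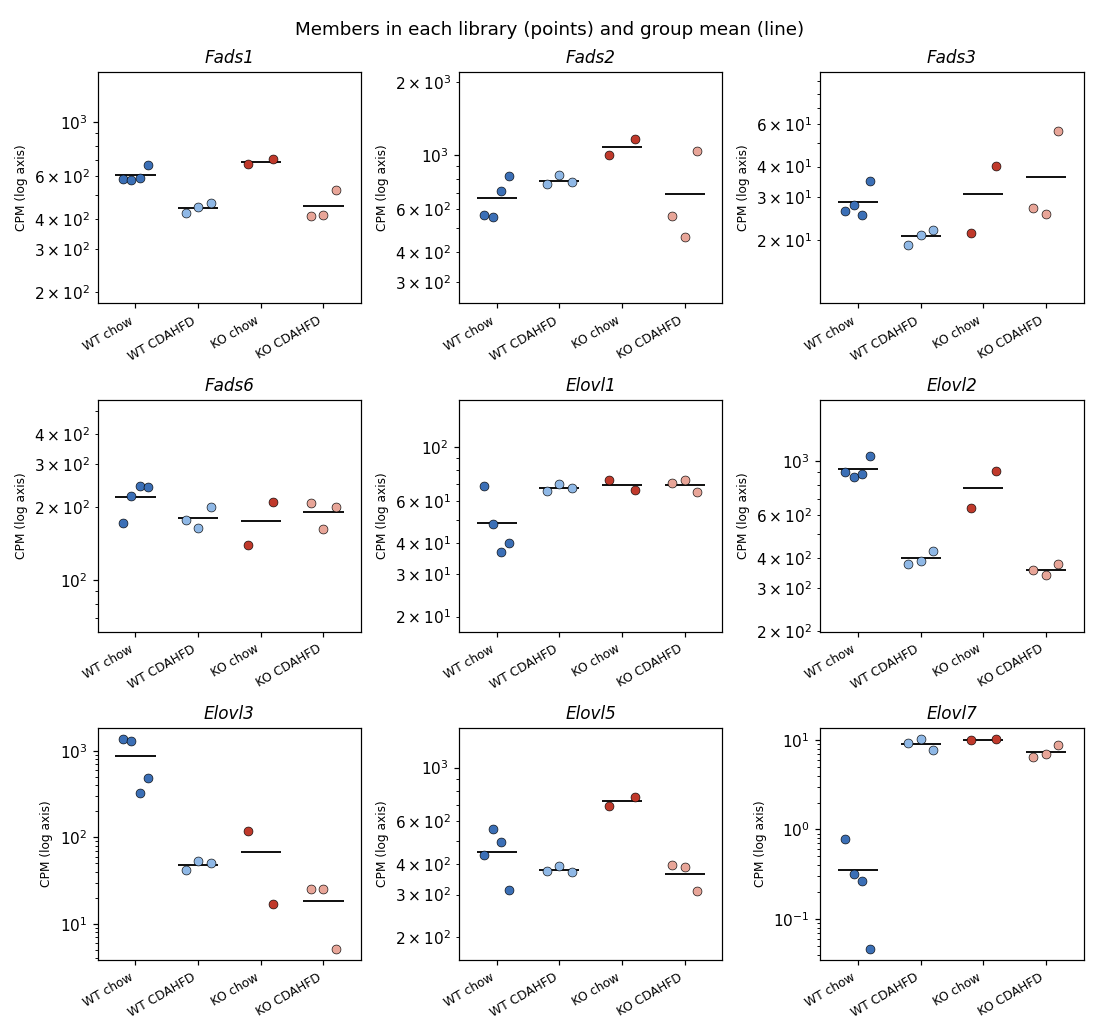
CPM of each gene in each library (points) with group means (lines), on log axes. The CDAHFD libraries of Elovl2 (338.4 to 425.1) lie below all chow libraries (642.3 to 1049), Elovl5 is highest in KO chow (697.5 and 756.8), and Elovl7 lies under 1 CPM in WT chow only.

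Elovl2, the elongase of the last steps towards docosahexaenoic acid, followed the diet in both genotypes. WT chow libraries held 902.6, 861.7, 886.6 and 1049 CPM and KO chow libraries 642.3 and 912.7 CPM. On CDAHFD the values were 377.7, 389.9 and 425.1 CPM in WT and 356.6, 338.4 and 377.1 CPM in KO mice. The diet effect on the log2 scale was -1.22 in WT (SE 0.13, adjusted p = 8.46e-06), or 2.33-fold lower, and -1.12 in KO mice (SE 0.15, adjusted p = 0.00178), or 2.18-fold lower. The responses differed by 0.10 (SE 0.20, 95% interval -0.34 to 0.53), and on CDAHFD KO differed from WT by -0.15 (95% interval -0.45 to 0.14). Both diet effects were called in every fit that left out 1 library. On chow, KO did not pass the test against WT (-0.25, SE 0.15, adjusted p = 0.199). The value was -0.46 among libraries of low clock score and -0.52 without KO chow replicate 2. Both of these fits hold KO chow replicate 1 as the only library of its group. Leaving out 1 library at a time gave values from -0.52 to 0.

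Elovl5, the elongase of the early steps, was highest in KO chow. WT chow libraries held 437.5, 560, 493.3 and 313.8 CPM and KO chow libraries 697.5 and 756.8 CPM. WT CDAHFD libraries held 375.8, 391.7 and 371.8 CPM and KO CDAHFD libraries 397.5, 390.3 and 310.3 CPM. Both KO chow libraries exceeded all other libraries. KO chow differed by 0.69 on the log2 scale from WT chow (SE 0.18, adjusted p = 0.0102), and by 0.94 from WT CDAHFD (SE 0.20, adjusted p = 0.0165), and KO CDAHFD differed by -0.99 from KO chow (SE 0.20, adjusted p = 0.0134). Among 12 fits that left out 1 library, the call against WT chow was lost in 1, without KO chow replicate 2 (0.63, adjusted p = 0.068). That against WT CDAHFD was lost in 5, without any one WT CDAHFD or KO chow library (adjusted p up to 0.0829), and that between the KO groups in 2, without either KO chow library (adjusted p up to 0.0725). In WT mice the diet effect was -0.25 (SE 0.17, adjusted p = 0.235), and the difference between the genotypes in the response to diet was -0.74 (SE 0.26, adjusted p = 0.0553). The WT diet effect passed the test among libraries of low clock score (-0.39, adjusted p = 0.0238) and without WT chow replicate 4 (-0.37, adjusted p = 0.0274). The difference in diet response passed it with DESeq2 (-0.75, adjusted p = 0.0287), with no filter (-0.78, adjusted p = 0.0154), with total counts only (-1.09, adjusted p = 0.00863), and without WT chow replicate 2 (-0.87) or 4 (-0.60).

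The ratio of Elovl2 to Elovl5 per kb was 1.83, 1.37, 1.6 and 2.97 in WT chow. It was 0.893, 0.884 and 1.02 with WT CDAHFD. KO chow libraries held 0.818 and 1.07, and KO CDAHFD libraries 0.797, 0.77 and 1.08. All WT chow libraries therefore lay above all others.

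**Figure D4:**
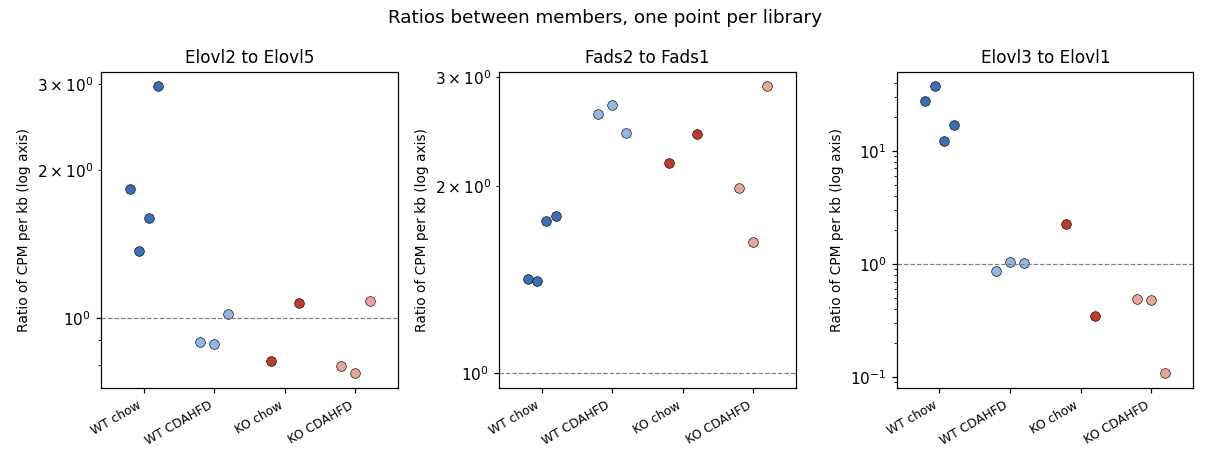
Ratios of CPM per kb between pairs of genes in each library, on log axes, with a dashed line at 1. Elovl2 exceeds Elovl5 by 1.37 to 2.97 times in WT chow and Elovl3 exceeds Elovl1 by 12.1 to 37.2 times there, ranges that no other group reaches.

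Elovl3, an elongase of saturated and monounsaturated chains known for circadian and male-biased expression in mouse liver, fell most. WT chow libraries held 1376, 1291.5, 325 and 489.3 CPM. WT CDAHFD libraries held 41.5, 53.3 and 50.1 CPM, KO chow libraries 119 and 16.8 CPM, and KO CDAHFD libraries 25.1, 25.5 and 5.09 CPM. No other library reached the lowest of WT chow. Its log2 fold change was -4.17 with WT CDAHFD (SE 0.78, adjusted p = 6.93e-04), or 18-fold lower, and -3.68 for KO chow (SE 0.91, adjusted p = 0.00631), or 12.8-fold lower. Leaving out 1 library at a time kept both calls, and the KO chow value ran from -5.69, without KO chow replicate 1, to -2.87, without KO chow replicate 2. KO CDAHFD was at -1.38 against WT CDAHFD (SE 0.72, adjusted p = 0.635).

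Within WT chow the high Elovl3 libraries were those of low clock score. The slope of its log2 level on the clock score, fitted beside the 4 group means, was -0.38 per unit of score (SE 0.05, adjusted p = 0.00182), and it was called in every fit that left out 1 library (-0.44 to -0.33). The slope was 0.11 for Fads2 (SE 0.03, adjusted p = 0.021) and -0.07 for Elovl1 (SE 0.02, adjusted p = 0.0416), so that 3 members were called, beside 8.27% of all genes. The slope of Fads2 was lost without WT chow replicate 4 (adjusted p = 0.0503) and without KO CDAHFD replicate 3 (adjusted p = 0.0521), and that of Elovl1 was lost in 10 of 12 fits. Among the 8 libraries with a score below 0, Elovl3 was at -3.48 in KO chow (adjusted p = 6.53e-06) and -4.79 in WT CDAHFD (adjusted p = 1.5e-07) against WT chow. There, KO CDAHFD was at -0.94 against WT CDAHFD, and the difference between genotypes in the response to diet was 2.55. In that fit KO chow is replicate 1 alone. With all 12 libraries the difference in diet response was 2.30 (SE 1.06, adjusted p = 0.145) and was not called. Without KO chow replicate 1, Elovl3 in KO CDAHFD against KO chow turned from -1.87 to 0.15. The clock score is a measure of clock gene expression, and its relation to time of day was not tested.

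**Figure D5:**
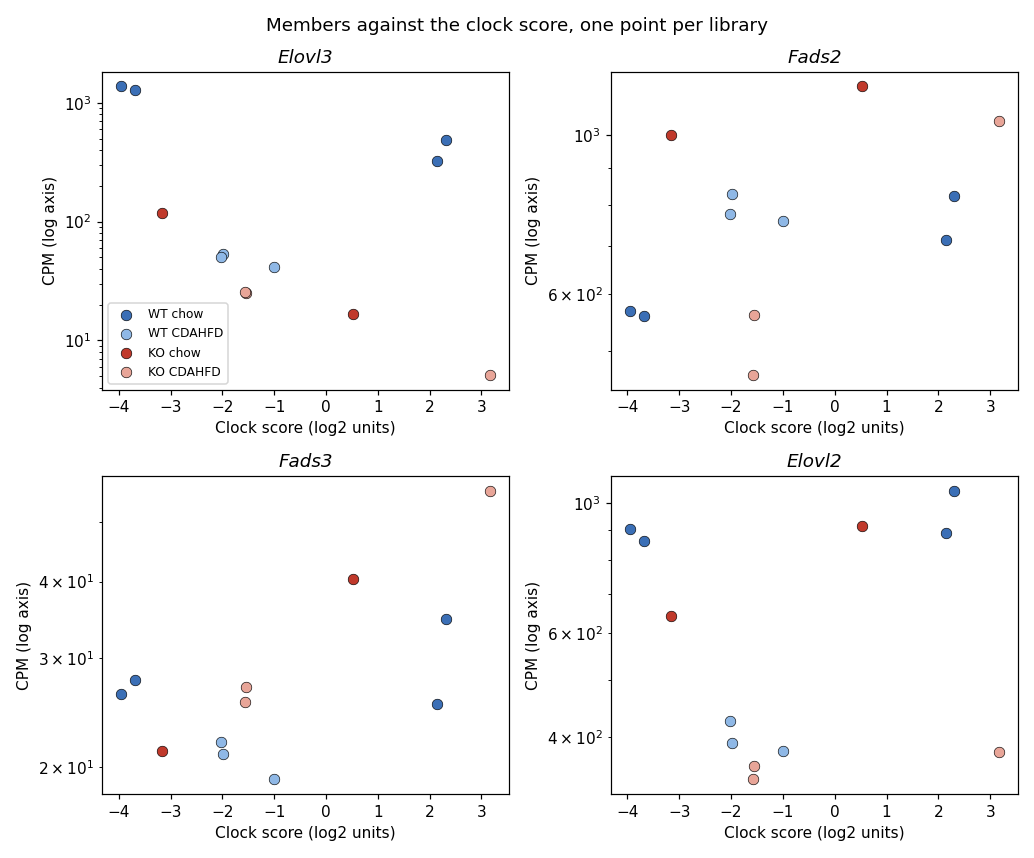
CPM on log axes against the clock score for 4 genes, 1 point per library. Elovl3 falls with the score within groups while WT chow (325 to 1376) stays above the others, Fads2 and Fads3 have high points at high scores, and Elovl2 separates by diet at all scores.

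Elovl1, an elongase of very long saturated chains, was at 69.1, 47.9, 37.1 and 40.2 CPM in WT chow. WT CDAHFD libraries held 65.9, 70.2 and 67.7 CPM, KO chow libraries 72.9 and 66.5 CPM, and KO CDAHFD libraries 70.7, 72.9 and 64.9 CPM. WT chow replicate 1 overlapped the other groups, whose 8 libraries lay close together. Compared with WT chow, it was higher by 0.52 on the log2 scale for KO chow (SE 0.19, adjusted p = 0.0474) and by 0.48 with WT CDAHFD (SE 0.17, adjusted p = 0.0315). These calls were lost in 11 and 6 of 12 fits that left out 1 library, and among libraries of low clock score the values were 0.32 (adjusted p = 0.228) and 0.22 (adjusted p = 0.233). Elovl1 overlaps Cdc20, a cell cycle gene on the opposite strand, by 53 bp of exon (1.94% of its exons), and the libraries do not record strand. Cdc20 lay between 0.183 and 1.5 CPM in WT chow and between 10.2 and 62.8 CPM in the other groups. Its part in the Elovl1 values was not tested.

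Elovl7, an elongase of saturated chains, was the member that rose most. WT chow held 20, 10, 8 and 1 counts, or 0.777, 0.315, 0.267 and 0.0459 CPM. WT CDAHFD libraries held 9.3, 10.3 and 7.65 CPM, KO chow libraries 9.87 and 10.2 CPM, and KO CDAHFD libraries 6.42, 6.92 and 8.87 CPM. All libraries outside WT chow lay above all of WT chow. The rise over WT chow was 4.81 on the log2 scale for KO chow (SE 0.40, adjusted p = 2.09e-06), or 28-fold, and 4.66 with WT CDAHFD (SE 0.38, adjusted p = 7.95e-07), or 25.3-fold. The response to diet was 4.66 in WT mice and -0.44 in KO mice (SE 0.36, adjusted p = 0.504), a difference of -5.10 (SE 0.53, adjusted p = 3.01e-05). All 3 of these calls were kept in every fit that left out 1 library. Summed cholangiocyte markers lay between 69.8 and 104.9 CPM for WT chow and between 187.4 and 306.3 for KO chow. On CDAHFD they lay between 386.8 and 608.6 in WT and between 602.7 and 915.7 in KO mice. Of the 8 markers, 6 were called higher and 1 lower in KO chow, and 7 were called higher with WT CDAHFD. Of all tested genes, 39.0% and 51.1% were called in these comparisons. The cholangiocyte and lipid-associated macrophage lists share 1 marker. The lipid-associated macrophage and stellate cell sums given above moved in the same direction, with 5 of 6 and 5 of 8 markers called higher in KO chow. There, neutrophil markers had 4 of 6 higher, macrophage and Kupffer cell markers 6 of 8, and T and NK cell markers 5 of 8 with 1 lower. Endothelial markers had 1 of 8 higher, B cell markers 0 of 6, and hepatocyte markers 6 of 8 lower. Summed neutrophil markers lay between 2.83 and 14.1 CPM in WT chow and between 21.4 and 31.8 in KO chow. The part of these cells in the Elovl7, Elovl1 and Fads3 values was not tested.

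The genes whose profile over the 12 libraries was most like that of Elovl3, by the root mean square difference of centred log2 CPM, were Mup21 (0.70), Pitx3 (0.81), Cyp7b1 (0.86), Ces3b (0.96) and Mup3 (0.99), where the median of all genes was 2.46. Mup21 and Mup3 encode major urinary proteins and Cyp7b1 an oxysterol hydroxylase. Pitx3 lies on the opposite strand and shares 10 bp of exon with Elovl3, and it held 1.6% as many counts. For Fads2 the closest genes were Ugcg (0.20), Taf4b (0.24), Nampt (0.25), Gm6493 (0.25) and Nab1 (0.25), against a median of 0.59. Ugcg encodes glucosylceramide synthase and Nampt an enzyme of NAD salvage.

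Genes that work with the desaturases and elongases were read from 7 lists of 57 genes, of which 53 were tested. Against WT chow, KO chow had 14 higher and 21 lower, and WT CDAHFD had 16 higher and 23 lower, where 39.0% and 51.1% of all tested genes were called. Their median log2 fold changes were -0.18 and -0.3, beside 0.002 and -0.048 for all genes. Within CDAHFD, 1 of 53 differed between the genotypes, beside 0.357% of all genes. This was Hsd17b4, a peroxisomal chain-shortening enzyme, which was lower in KO (-0.97, SE 0.11, adjusted p = 0.0012).

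Of the other enzymes of the elongation cycle, 1 of 6 tested was higher and 2 were lower with KO chow, against 1 higher and 3 lower with WT CDAHFD. Tecr, the reductase of the last step, had a mean of 238.8 CPM for WT chow, 146.2 for KO chow and 143.9 with WT CDAHFD (adjusted p = 4.81e-04 and 7.87e-05). Hsd17b12, the ketoacyl reductase, fell from 226.7 to 159.1 and 163.8 CPM (adjusted p = 0.00348 and 0.00169). Hacd3, a dehydratase, passed the test in WT CDAHFD (-0.36, adjusted p = 0.0283) and had -0.38 in KO chow (adjusted p = 0.0531). Hacd4, another dehydratase, rose from 2.53 to 6.09 and 12.6 CPM. Genes of cytochrome b5 and its reductases, a family that includes the electron donors of the desaturases, were also listed. Of 5 tested, 1 was higher and 3 were lower with KO chow, and 2 were higher and 3 lower with WT CDAHFD. Which of these genes serve the desaturases was not tested. Cytochrome b5 genes Cyb5a and Cyb5b and the reductase gene Cyb5r3 were the 3 lower genes, the last with 686.8 CPM for WT chow, 372.9 for KO chow and 388.3 with WT CDAHFD. Cyb5r1 rose from 10.3 to 35.3 and 22.6 CPM.

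Acyl-CoA synthetases, which activate fatty acids before either step, had 2 higher and 3 lower of 6 with KO chow, and 1 higher and 4 lower with WT CDAHFD. Acsl1 fell from 1442 CPM (WT chow) to 453.3 (KO chow) and 475.8 CPM (WT CDAHFD), and Slc27a5 from 971.8 to 324.5 and 275.8. Slc27a2 fell by 1.18 and 1.09 on the log2 scale. Acsl4, which prefers arachidonic acid, rose from 83.8 to 187.8 and 118.1 CPM (adjusted p = 1.18e-04 and 0.0137). The peroxisomal chain-shortening list, which completes docosahexaenoic acid, had 1 higher and 7 lower of 9 with KO chow, and 1 higher and 6 lower with WT CDAHFD. Abcd3 and Scp2 fell in both comparisons (log2 fold changes -1.22 and -0.80 in KO chow, -1.17 and -1.16 in WT CDAHFD). Abcd2, a peroxisomal transporter of very long chains, rose from 5.54 (SD 3.01) to 34.7 (SD 24.8) and 25.6 CPM (SD 4.14).

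Acyltransferases that place fatty acyl chains in phospholipids had 5 higher and 1 lower of 8 with KO chow, and 5 higher with WT CDAHFD. Agpat3 was the lower gene (-0.50, adjusted p = 0.00569), and Lpcat3 and Mboat7 were called in neither comparison. Lpcat2, Lpcat4, Mboat1 and Mboat2 were the 4 largest, with Lpcat2 rising from 2.58 to 8.17 and 8.52 CPM and Mboat1 from 0.483 to 3.25 and 2.3 CPM. Lpcat4 rose by 1.37 and 2.01 and Mboat2 by 2.47 and 2.32 on the log2 scale. Enzymes that release or oxidise arachidonic acid had 4 higher of 9 with KO chow and 5 higher with WT CDAHFD. Tbxas1, thromboxane synthase, rose from 3.35 to 10 and 17.8 CPM and Alox5ap, the partner of the leukotriene-forming lipoxygenase, from 1.66 to 4.2 and 11.2 CPM. Ptgs2, an inducible cyclooxygenase, rose by 3.34 and 3.68 on the log2 scale, from a mean of 0.0638 CPM. Alox5 passed the test in WT CDAHFD (2.1, adjusted p = 0.0132) and had 1.69 in KO chow (adjusted p = 0.0783), from a mean of 0.0708 CPM. Macrophage markers moved with these groups as given above, and their part was not tested.

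Among the transcription regulators of the set, 5 of 10 were lower with KO chow, of which one was the deleted gene Ppara itself, and WT CDAHFD had 1 higher and 7 lower. Mlxipl, the carbohydrate-responsive factor ChREBP, fell from 451.5 CPM (WT chow) to 121.8 (KO chow) and 174 CPM (WT CDAHFD) (adjusted p = 4.37e-06 and 6.71e-06). Insig1, a sterol-regulated inhibitor of SREBP processing, fell from 390 to 246.6 and 150.6 CPM. Srebf1, whose product activates desaturase genes, fell in WT CDAHFD (-1.21, SE 0.25, adjusted p = 0.00138) and had -0.18 in KO chow (SE 0.27, adjusted p = 0.647).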

How the data were processed

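Liver RNA of 12 mice was sequenced in poly-A selected, non-directional libraries. The authors deposited read counts per Ensembl gene without normalization. Per the labels, FastQC 0.11.5, STAR 2.7.3a and DESeq2 were used with GRCm38, and the counting program and annotation release are not given in the sources used here. Symbols, positions and exon lengths were taken from GENCODE M21 (94.08% of identifiers).

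Groups and replicate numbers came from the sample titles. The study's methods give 3 mice per group, and the description of KO chow replicate 2 carries the number 3. Each library was taken as 1 mouse, and p-values measure the spread between these libraries.

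Genes were kept with filterByExpr, scaled with TMM and fitted with 1 mean per group over the 12 libraries in edgeR 4.0.16 (R 4.3.3, quasi-likelihood test). TMM factors were 0.7292 to 0.8268 in WT chow and 1.026 to 1.258 in the other groups. Adjusted p are Benjamini-Hochberg values over 17358 genes, and a gene was called under 0.05. The standard error is the log2 fold change divided by the square root of F. CPM use TMM library sizes, spreads are SDs, and profiles were compared on log2 CPM (prior count 2). The fit was tested on simulated data with 200 changed genes. Alternatives were DESeq2 1.42.0, its size factors, total counts only, no filter, only the groups compared, a replicate block, the clock score as a covariate, each library left out, and, chosen after seeing the data, the 8 libraries of low clock score and the slope on the score.

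The members and lists were chosen with earlier results of these data known. Named were all 9 members, Ppara, at most 4 called genes of largest change per pathway list, the 5 genes most like Fads2 and Elovl3, and Arntl and Dbp. Hsd17b4 was named after its values were seen, as the 1 gene of its count. Agpat3, Lpcat3 and Mboat7 were also named after their values were seen, and not every gene the rule names is reported here. Arntl lay between 2.88 and 15.4 CPM in the 4 libraries of high clock score and between 25.5 and 48.6 CPM in the other 8. Sequences are from RefSeq (GRCm38.p6), and Fads1 and Elovl3 have no entry. Figures were drawn with matplotlib 3.10.9 in Python 3.11.15.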

Additional observations from a re-analysis of the deposited data

Results flagged for a closer look

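Fads1 in WT chow replicate 4 (669.2 CPM) stood apart from the other 3 libraries of its group (580.5 to 590.7 CPM) by Dixon's test at the 95% level. Chance marks about 1 in 20 groups, and WT chow, the only group with 4 libraries, was tested for each of the 9 genes. The response of Elovl7 to CDAHFD differed between genotypes by -5.10 on the log2 scale (adjusted p = 3.01e-05), with an increase in WT mice and no called change in KO mice.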

How the results depend on the processing

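Each of the 20 called values was recomputed, 384 times in all, and was called in the same direction 319 times, fell short of the threshold 64 times and turned 1 time. The value that turned was Fads1 in WT CDAHFD against WT chow (0.12 with total counts only, where the median of all genes moved by 0.51). The count for the difference between genotypes in the response to diet was 1, and it changed with the setting, to 3 members under the clock score as a covariate, 2 with DESeq2, 3 with total counts only, 4 in low-score libraries and 4 with no filter. With the replicate block it was 2. Replicate numbers did not pair the libraries (3 of 15 same-number pairs correlated over 0.1, from -0.24 to 0.27), and the block gave 4 members in KO chow and 6 in WT CDAHFD against WT chow. Low-score libraries gave 1 member for KO CDAHFD against WT CDAHFD and 5 for KO CDAHFD against KO chow. Total counts only left 1 member with a slope on the clock score. Leaving out 1 library gave 3 to 4 members for KO chow against WT chow, 1 to 4 for KO CDAHFD against KO chow, 1 to 3 for KO chow against WT CDAHFD, 1 to 2 for the difference in diet response and 1 to 3 for the slope. For KO chow against WT chow the count was 3 without WT chow replicate 2 or 3, any WT CDAHFD library, KO chow replicate 1 or KO CDAHFD replicate 1. It was 1 for KO CDAHFD against KO chow without either KO chow library, and 1 for KO chow against WT CDAHFD without either KO chow library or WT CDAHFD replicate 1 or 2. The difference in diet response counted 2 without WT chow replicate 1, 2 or 4, KO chow replicate 1 or KO CDAHFD replicate 3, and the slope 1 without WT chow replicate 4. The causes were not tested.

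All other values that turned were not called. With total counts only they were, against WT chow, 0.07 for Fads6 and 0.16 for Elovl2 in KO chow, and 0.10 for Fads3, 0.28 for Fads6 and 0.30 for Elovl5 in WT CDAHFD. There KO chow against WT CDAHFD gave -0.12 for Elovl1 and -0.02 for Elovl7, and the diet response of Elovl2 differed by -0.26. Elovl1 in KO CDAHFD against KO chow, at 0.00, was 0.03 with DESeq2 and with its size factors, 0.20 with total counts only, 0.01 with no filter, 0.00 with only the groups compared, 0.09 with the block and 0.10 with the clock score. The block gave 0.01 for Fads6, -0.06 for Elovl1 and -0.35 for Elovl3 in KO chow against WT CDAHFD. Within CDAHFD the clock score gave -0.04 for Fads1, -0.02 for Fads6 and 0.02 for Elovl5, and low-score libraries -0.11 for Fads1 and 0.05 for Elovl5. Low-score libraries gave -0.35 for Fads3 in KO chow against WT chow.

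Without 1 library at a time, KO CDAHFD against KO chow ran from -0.07 to 0.08 for Elovl1, -2.69 to 0.15 for Elovl3, -0.23 to 0.77 for Fads3 and -0.12 to 0.45 for Fads6. KO CDAHFD against WT CDAHFD ran from 0.00 to 0.08 for Elovl1, -0.12 to 0.05 for Elovl5, -0.11 to 0.08 for Fads1 and -0.62 to 0.03 for Fads2. KO chow against WT CDAHFD ran from -0.04 to 0.10 for Elovl1, -1.53 to 1.3 for Elovl3 and -0.38 to 0.21 for Fads6. Fads3 in KO chow against WT chow ran from -0.42 to 0.52, the difference in diet response of Elovl2 from -0.14 to 0.36, and the slope of Elovl7 from -0.13 to 0.04. Elovl7 in WT chow rests on 1 to 20 counts per library, which limits the precision of its fold changes, and KO chow rests on 2 libraries.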
